A study of Mus musculus with 40 samples.

Results

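Aldoa, Tpi1 and Ldhb, which encode enzymes of glycolysis, and Bnip3l, which encodes a receptor for the removal of mitochondria, were followed in mouse embryos exposed to an activated form of the drug cyclophosphamide. They were found as the probes annotated with exactly 1 of these gene symbols. All 4 genes were found, of 6970 genes named in this way on the arrays, and they had 7 probes. Tpi1 (probe 879), Ldhb (probe 1066) and both Bnip3l probes of array design 2 (3669 and 3678) rose by 1.12-fold to 1.28-fold. Of all probes on that design 19.8% were called higher. With a dye trend described below removed, only Ldhb kept its call. When arrays were not centred on their median, all 4 of these probes lay below 0. Neither of the 2 Aldoa probes of array design 1 (6038 and 6948) passed the test there, with values of 1.29-fold and 1.20-fold. The Bnip3l probe of array design 1 (7523) stood at 1.00-fold and did not pass either.

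Treated embryos were cultured at 37 °C for 5 h with 40 µM 4-hydroperoxycyclophosphamide (4CP), which breaks down in culture to the DNA-alkylating product of cyclophosphamide without needing the liver. Control embryos were kept untreated at 37 °C. Total RNA of both was hybridised together on 40 2-colour arrays, 20 of each of 2 array designs, from 5 numbered replicates with both dye orientations and 2 readouts of every slide. The sources used here do not give strain, stage or number of embryos. Nothing states that the replicates came from separate cultures, so p-values measure only the spread between these samples.

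Glycolysis turns glucose into pyruvate, and lactate dehydrogenase turns pyruvate into lactate and back. Embryos in culture draw heavily on this route. Aldolase A, the product of Aldoa, splits fructose bisphosphate into the triose phosphates, and triosephosphate isomerase, the product of Tpi1, turns one triose phosphate into the other. Ldhb encodes the B subunit of lactate dehydrogenase, and Ldha encodes its A subunit. Bnip3l, also called Nix, lies in the outer mitochondrial membrane, binds proteins of the autophagosome, and is known for clearing mitochondria from maturing red blood cells. Aldoa, Ldha and Bnip3l are known targets of the hypoxia-inducible factor, which binds a short core in DNA, ACGTG or GCGTG.

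The stretches before the start sites of the glycolytic members are shown because that factor is a known regulator of the pathway. RefSeq windows of assembly GRCm38.p6 were at hand for 3 of the 4 members (Aldoa, Tpi1 and Ldhb), each taken as the 250 bases before a transcript start. Capitals mark a match to ACGTG or GCGTG on either strand. Both motifs are 5 bases long and cannot match at the same place on one strand. The Ldhb window lies at chr6:142507958-142508207 and the Tpi1 window at chr6:124814159-124814408, both on the minus strand. For Aldoa, which had 3 windows, only the 29 bases around its match are given, at chr7:126799364-126799392 on the minus strand.
Ldhb: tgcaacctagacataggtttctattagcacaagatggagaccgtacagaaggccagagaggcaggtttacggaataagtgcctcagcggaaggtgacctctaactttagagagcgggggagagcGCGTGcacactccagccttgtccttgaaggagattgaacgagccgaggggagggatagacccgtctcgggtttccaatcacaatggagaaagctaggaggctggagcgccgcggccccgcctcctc
Tpi1: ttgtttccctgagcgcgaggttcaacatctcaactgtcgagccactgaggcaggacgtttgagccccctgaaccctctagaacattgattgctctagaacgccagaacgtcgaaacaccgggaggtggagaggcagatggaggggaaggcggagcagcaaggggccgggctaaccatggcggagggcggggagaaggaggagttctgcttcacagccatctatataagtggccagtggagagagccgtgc
Aldoa: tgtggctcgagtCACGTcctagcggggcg

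The Ldhb window held 1 GCGTG, which began 126 bases before the start. The Tpi1 window held neither motif. In Aldoa, 1 ACGTG on the opposite strand, read as CACGT above, was shared by 2 overlapping windows, at 202 and 126 bases before their starts, and the third window held none. Of all 32851 windows of this length, 16.6% held ACGTG, 28.2% GCGTG and 38.6% either motif. These matches describe letters only, since the arrays measured no binding.

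Every value below is a log2 ratio of treated over control, relative to the median probe of its array, and a replicate's value is the mean over its arrays. Ratios carry no expression level, so levels of the genes cannot be ranked. The direction is the likely one, with the ratio read as channel 1 over channel 2. That reading rests on the channel order of the labels and on Ccng1 (cyclin G1), a gene that p53 turns on, which had 2.41 ± 0.31 and 2.90 ± 0.46 on array design 1 and 1.39 ± 0.40 on array design 2 (SD, n = 5). The numerator is not stated, and some arrays of different replicates in the same orientation correlated below −0.3 (1 of 80 pairs on array design 1, the lowest at −0.31, and 5 of 80 on array design 2, the lowest at −0.54). With the sign turned, every value below keeps its size and its p, and each rise becomes a fall. Tests used limma with Benjamini-Hochberg adjustment over all probes of a design and a threshold of 0.05. The designs hold different probes and were tested apart, so values are not compared across them by a test.

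Ldhb had the smallest p of the 7 probes. Its values were 0.52, 0.34, 0.22, 0.41 and 0.30 in replicates 1 to 5. All 5 lay above 0, with replicate 1 highest and replicate 3 lowest. The mean was 0.36 ± 0.11 (SD, n = 5), a rise of 1.28-fold (95% interval of the log2 ratio 0.24 to 0.47, limma adjusted p = 4.64e-05).

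Tpi1 had 0.37, 0.30, 0.22, 0.21 and 0.14. Again all 5 replicates were higher in treated embryos, and replicate 1 was the highest. The mean was 0.25 ± 0.09 (SD, n = 5), a rise of 1.19-fold (95% interval 0.13 to 0.36, limma adjusted p = 0.00167). The SDs of Ldhb and Tpi1 lay near the median SD of all probes on array design 2, which was 0.117.

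Bnip3l was measured by 2 probes on array design 2, which differed in their replicates. Probe 3678 had 0.40, 0.32, 0.07, 0.26 and 0.27, with all 5 above 0 and replicate 3 lowest. Its mean was 0.27 ± 0.12 (SD, n = 5), a rise of 1.20-fold (95% interval 0.15 to 0.38, limma adjusted p = 0.00121). Probe 3669 had 0.25, 0.30, 0.14, 0.18 and −0.07, so that replicate 5 alone was below 0. Its mean was 0.16 ± 0.14 (SD, n = 5), a rise of 1.12-fold (95% interval 0.04 to 0.28, limma adjusted p = 0.0415). The call of probe 3669 ended without replicate 1, 2, 3 or 4 (limma adjusted p = 0.159, 0.161, 0.0659 and 0.102), and those of probe 3678, Ldhb and Tpi1 held whichever replicate was left out. With both probes averaged, Bnip3l had 0.21 ± 0.11 (SD, n = 5), 1.16-fold, with limma adjusted p = 0.00364 over the 4075 genes of that design.

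All 4 member probes of array design 2 therefore passed upward, where 19.8% of its probes were called higher and 8.07% lower. Their rises were small beside Ccng1 and none reached 1.5-fold.

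On array design 1 none of the 3 member probes passed, where 0.638% of all probes were called higher and 0.013% lower. Both Aldoa probes were among the 2534 of 7680 probes with an unadjusted limma p under 0.05. Aldoa probe 6038 had 0.41, 0.36, 0.05, 0.54 and 0.50. All 5 were above 0, and replicate 3 stood apart from the other 4 near 0. Its mean was 0.37 ± 0.19 (SD, n = 5), 1.29-fold (95% interval 0.20 to 0.55, limma adjusted p = 0.0516). Aldoa probe 6948 had 0.40, 0.39, 0.05, 0.02 and 0.48, so that replicates 3 and 4 lay near 0 and the other 3 near 0.4. Its mean was 0.27 ± 0.21 (SD, n = 5), 1.20-fold (95% interval 0.08 to 0.45, limma adjusted p = 0.0673). The mean of both probes was 0.32 ± 0.17 (SD, n = 5), with limma adjusted p = 0.0598 over 3838 genes.

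The Bnip3l probe of array design 1, 7523, had 0.13, 0.14, 0.23, −0.35 and −0.15. Replicates 1 to 3 were above 0 and replicates 4 and 5 below. The mean was 0.0033 ± 0.24 (SD, n = 5, 95% interval −0.20 to 0.21, limma adjusted p = 0.983). That interval overlaps those of probe 3669 (0.04 to 0.28) and probe 3678 (0.15 to 0.38), and no test compared the probes across designs. The SDs of the 3 member probes here, 0.19 to 0.24, were above the median SD of all probes on the design, 0.145.

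**Figure D1:**
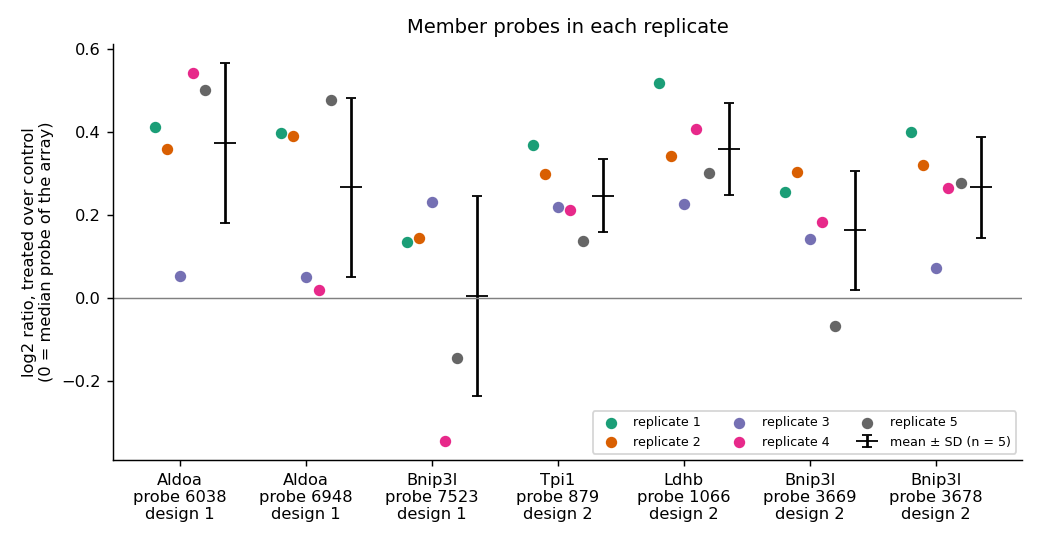
Log2 ratio of treated over control embryos (vertical axis, 0 is the median probe of the array) for the 7 probes of Aldoa, Bnip3l, Tpi1 and Ldhb (horizontal axis). Points are the 5 replicates, and black bars are the mean ± SD. All replicates of Ldhb lie between 0.22 and 0.52, while those of Bnip3l probe 7523 lie between −0.35 and 0.23 on both sides of 0.

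Replicate 4 on array design 1 included a readout that had lost 786 of 7680 values (10.2%), with treated embryos in channel 2. It held no value for Aldoa probe 6038, so the value of 0.54 came from the other readouts. For Aldoa probe 6948 this readout gave −1.03 where the other readout of the same slide gave 0.78. For Bnip3l probe 7523 it gave −1.92 against 0.39. The gaps of 1.81 and 2.31 were the widest between readouts of 1 slide for any member, against median gaps of 0.18 to 0.47 per probe.

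Without that readout both Aldoa probes passed. Replicate 4 of Aldoa probe 6948 moved from 0.02 to 0.47 and the mean to 0.36 (limma adjusted p = 0.00644). Probe 6038, which had no value in that readout, kept its own values and its mean of 0.37, with limma adjusted p = 0.00620. Replicate 4 of Bnip3l probe 7523 moved from −0.35 to 0.23, and the mean to 0.12, which did not pass (limma adjusted p = 0.212). In that fit 10.2% of all probes on the design were called higher and 5.77% lower. With the dye trend described below also removed, a run chosen after seeing the data, neither Aldoa probe passed. Probes 6038 and 6948 then had 0.15 and 0.12 (limma adjusted p = 0.123 and 0.213).

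The 2 dye orientations of a replicate were on separate slides. Ldhb was higher in treated embryos on 9 of the 10 slides. Its values were 0.46, 0.87, 0.22, 0.29 and 0.53 with treated embryos in channel 1, and 0.58, −0.18, 0.23, 0.52 and 0.07 in channel 2. Tpi1 had −0.09, 0.91, 0.18, −0.11 and 0.71 in channel 1 and 0.83, −0.31, 0.25, 0.53 and −0.43 in channel 2. Where one orientation of Tpi1 was below 0 the other was above, and replicate 3 alone was above 0 in both.

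Aldoa probe 6038 showed the same kind of exchange. It had −0.04, 0.79, −0.15, 0.25 and 1.02 in channel 1 and 0.86, −0.08, 0.26, 0.83 and −0.02 in channel 2. Replicates 2 and 5 were higher with treated embryos in channel 1, and replicates 1, 3 and 4 in channel 2. The part of the ratio that stays when the dyes are exchanged spanned 0.971 across replicates for Aldoa probe 6038, 1.07 for Tpi1 and 0.641 for Ldhb. The treatment part spanned 0.489, 0.230 and 0.293 for the same probes. The dye part therefore varied more than the treatment part, but its mean over replicates did not pass the test for any member probe (limma adjusted p from 0.0824 to 0.995).

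Bnip3l probes 3669 and 7523 had orientation means of opposite sign. Probe 3669 was above 0 in all 5 replicates with treated embryos in channel 1 (1.04, 0.08, 0.29, 0.60 and 0.55) but in 1 of 5 in channel 2 (−0.54, 0.53, −0.0047, −0.24 and −0.69). Probe 7523 followed the same order, with 0.08 to 1.12 in channel 1 and −0.83 to 0.28 in channel 2, where 1 of 5 was above 0. Probe 3678 was above 0 in 4 of 5 replicates in each orientation, with −0.13 to 0.64 in channel 1 and −0.09 to 0.69 in channel 2. Of the 3 Bnip3l probes, 3678 is thus the one whose mean was above 0 in both orientations.

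**Figure D2:**
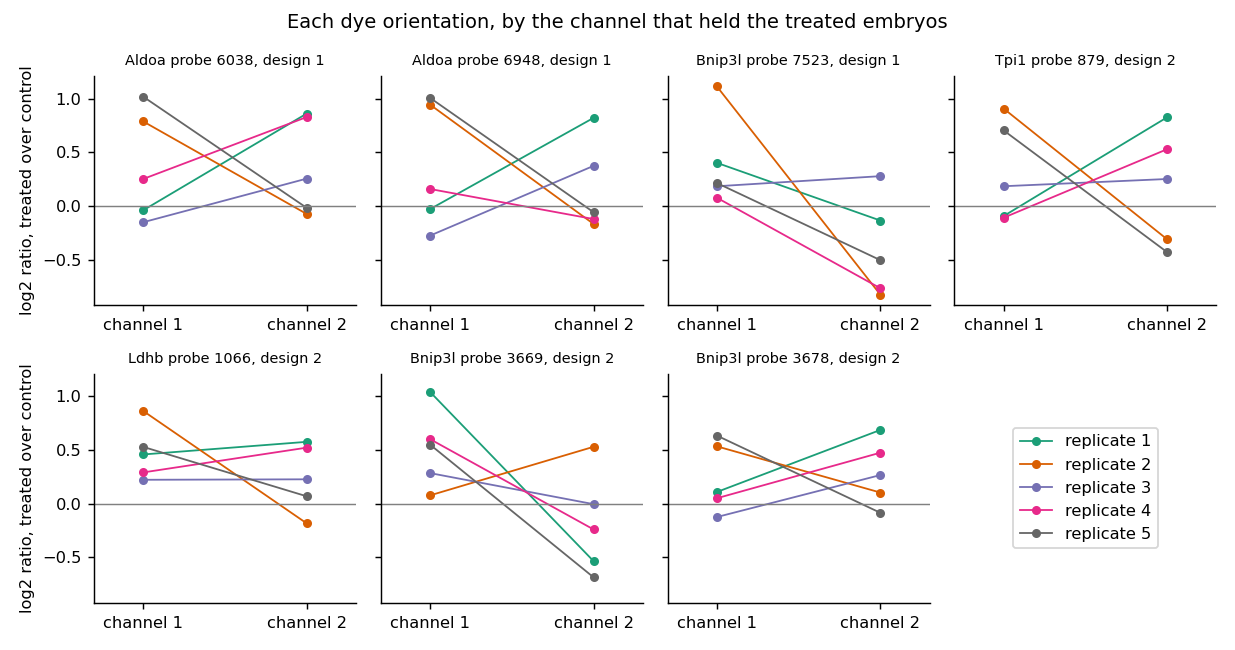
Log2 ratio of treated over control embryos (vertical axes) in each dye orientation, by the channel that held the treated embryos (horizontal axes), for the 7 member probes. Each line joins the 2 orientations of 1 replicate. Lines cross for Aldoa and Tpi1, Ldhb stays above 0 on 9 of 10 slides, and Bnip3l probes 7523 and 3669 fall below 0 in channel 2 in 4 of 5 replicates.

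Treatment ratios across all probes partly followed this dye profile. A smooth function of the dye part held between 34.0% and 81.5% of a replicate's variance on array design 1, and between 35.3% and 61.6% on array design 2. With it removed, Ldhb kept its call at 0.24 ± 0.06 (SD, n = 5, limma adjusted p = 0.00648), with 0.25, 0.29, 0.16, 0.29 and 0.20 in the replicates. Of all probes on array design 2, 3.18% were then called higher and 1.83% lower. Tpi1 was at 0.05 ± 0.06 (limma adjusted p = 0.433), Bnip3l probe 3678 at 0.14 ± 0.12 (0.117) and Bnip3l probe 3669 at 0.05 ± 0.07 (0.424), and none of them passed. The Aldoa probes of array design 1 were at 0.15 ± 0.10 and 0.09 ± 0.17, and Bnip3l probe 7523 at −0.10 ± 0.19, where 0.56% of all probes were called higher and 0.221% lower. Noise of a single array enters both the treatment and the dye part, and how much of the trend arose in that way was not tested.

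The rises also depend on the reference point. Median ratios of the replicates before centring lay between −0.66 and −0.10, so centring raised all values. Without it, the 4 member probes of array design 2 were below 0, with Ldhb at −0.07 (limma adjusted p = 0.515), Tpi1 at −0.18 (0.0929), Bnip3l probe 3678 at −0.16 (0.133) and Bnip3l probe 3669 at −0.27 (0.0148). In that fit 0.276% of the probes were called higher and 87.3% lower. Without centring on array design 1, the Aldoa probes had 0.06 and 0.03 and Bnip3l probe 7523 had −0.24 (limma adjusted p = 0.0187), where 0.247% of all probes were called higher and 59.8% lower. The rises thus state a position relative to the other probes.

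**Figure D3:**
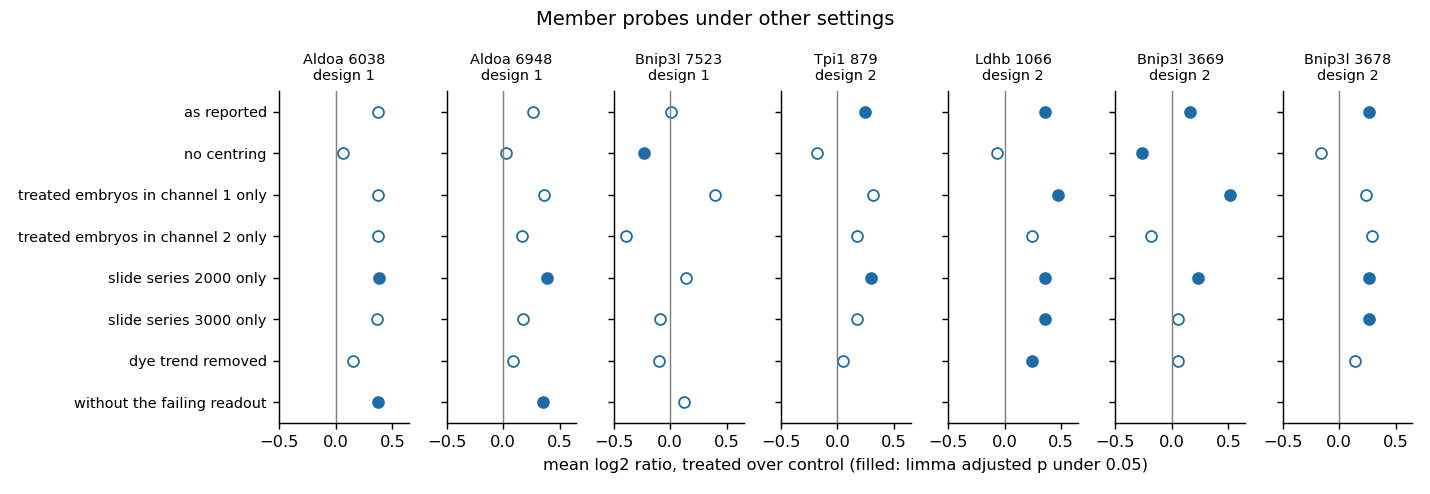
Mean log2 ratio of treated over control embryos (horizontal axes) for each member probe as reported and under 7 other settings (vertical axis). Filled points had a limma adjusted p under 0.05, and the failing readout, on array design 1 alone, is the one that had lost values. Of the 7 probes, only Ldhb passed with the dye trend removed, and without centring all 4 probes of array design 2 lie below 0.

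The slides came from 2 numbered series, 2000 and 3000. No probe on either design differed between them by limma's test of the difference, while 142 and 719 probes had an unadjusted p under 0.05 on designs 1 and 2. Ldhb had 0.36 in series 2000 and 0.35 in series 3000, and Bnip3l probe 3678 had 0.26 and 0.27. Tpi1 had 0.29 and 0.17, with a difference of −0.12 (95% interval −0.34 to 0.10). Bnip3l probe 3669 had 0.23 and 0.06, and Aldoa probe 6948 had 0.39 and 0.18.

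The members were then set among the other genes of glycolysis. The list had 11 probes of 8 genes on array design 1, the 2 Aldoa probes among them, and none passed. Its median was 0.25 against 0.0049 over all probes, and 6 of the 11 had an unadjusted limma p under 0.05. Pgam1, the phosphoglycerate mutase, had 0.40 ± 0.28, Ldha 0.33 ± 0.32, Pgk1, the phosphoglycerate kinase, 0.34 ± 0.35 and Gapdh 0.24 ± 0.26 (SD, n = 5, limma adjusted p = 0.0516, 0.0796, 0.0922 and 0.117). The 2 probes of Pkm, the pyruvate kinase, had 0.18 and 0.25. Aldoc, the aldolase of brain, had 0.11, and the 2 probes of Pfkl, a phosphofructokinase, had 0.05 and 0.02. Replicate 3 was the lowest for Pgam1, Pgk1, Ldha, Gapdh and Pkm, as it was for Aldoa probe 6038.

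Without the readout that had lost values, 5 of the 11 probes passed upward, namely Pgam1, Ldha, Pgk1 and both Aldoa probes (781 of 7680 probes passed upward on the design). With the dye trend removed none passed and the median was 0.08. Array design 2 held 7 probes of 6 glycolysis genes, of which Tpi1 and Ldhb rose and none fell, with a median of 0.10 against 0.017 over all probes. The other 5 probes did not pass. They were Hk1, a hexokinase, at −0.0015, Pfkm, a phosphofructokinase, at −0.01, Bpgm, which makes bisphosphoglycerate in red blood cells, at 0.10 and −0.04, and Pkm at 0.10. With the dye trend removed the median was −0.0013.

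**Figure D4:**
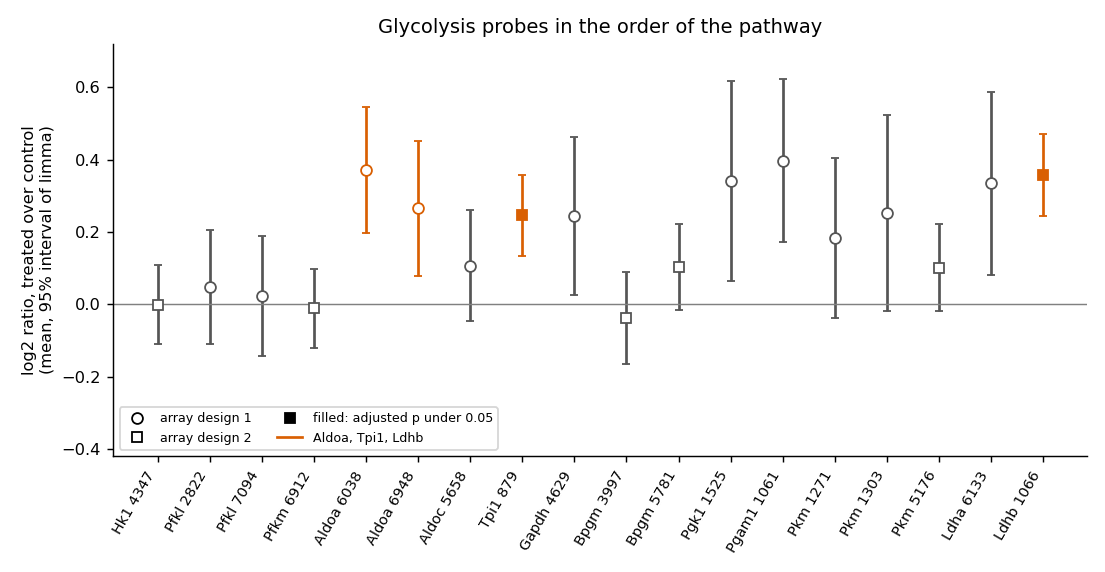
Mean log2 ratio of treated over control embryos (vertical axis) with its 95% interval for the 18 glycolysis probes, in the order of the pathway (horizontal axis). Circles are array design 1 and squares array design 2, and filled symbols passed the test. Hk1, Pfkl and Pfkm lie between −0.01 and 0.05, and Tpi1 and Ldhb are the filled points at 0.25 and 0.36.

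Neighbouring routes were described in the same way. The regulator list mixed control genes of glycolysis with genes of pyruvate dehydrogenase and its kinases and phosphatases. It also held genes of glucose synthesis. The glycogen list also held Gpd2, a glycerol phosphate dehydrogenase, and the citric acid cycle list held the cytosolic Idh1. On array design 1 no probe of any list passed limma's adjusted threshold. An unadjusted limma p under 0.05 was reached by 2 of 8 carrier probes and 5 of 10 of the regulator list. In the pentose phosphate list 2 of 3 reached it, and in the citric acid cycle list 10 of 18. In the glycogen list 0 of 4 did, in the hypoxia response 4 of 16 and in mitophagy 2 of 15. Over all probes of that design the number was 2534 of 7680. Without the readout that had lost values, 2 of 8 carrier, 1 of 10 regulator and 2 of 3 pentose phosphate probes passed upward. The same fit called upward 6 of 18 citric acid cycle, 0 of 4 glycogen, 1 of 16 hypoxia response and 2 of 15 mitophagy probes. Of all probes on the design, 10.2% passed upward in it. On array design 2 the counts below stand against 19.8% of all probes called higher and 8.07% lower. Of glucose and lactate carriers none of 8 probes passed on array design 1 and none of 2 on array design 2. Slc2a4, a glucose carrier, had −0.14 on array design 2. The smallest p on array design 1 was that of Bsg, the chaperone of the lactate carriers, at 0.39 ± 0.15 (SD, n = 5, limma adjusted p = 0.0505). In the regulator list none of 10 probes passed on array design 1. A probe of Pdha1, of pyruvate dehydrogenase, had the smallest p at 0.19 ± 0.08 (limma adjusted p = 0.0548), and the other Pdha1 probe had −0.12. Pck2 (−0.18), Tigar on both probes (−0.15 and −0.17) and Pfkfb2 (−0.16) had an unadjusted limma p under 0.05, all below 0. With the dye trend removed these had −0.0081, 0.029, −0.0058 and −0.083. On array design 2, 1 of 12 passed, a probe of Pdk3, a kinase that inhibits pyruvate dehydrogenase, which fell by 0.20 (SD 0.10, n = 5). The other Pdk3 probe had 0.14 and did not pass, and with the dye trend removed neither did the first (−0.04, limma adjusted p = 0.612).

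In the pentose phosphate branch 3 of 7 probes rose on array design 2, all of Tkt, the transketolase, at 0.28, 0.23 and 0.15, while the fourth Tkt probe had −0.14 and did not pass. Array design 1 had 3 probes of this branch and none passed, with Tkt at 0.43 ± 0.24 (limma adjusted p = 0.0516). In the citric acid cycle list 4 of 13 probes rose and 1 fell on array design 2. Idh1, the cytosolic isocitrate dehydrogenase, rose by 0.42 ± 0.11 (SD, n = 5, limma adjusted p = 8.88e-06), Sdha, of succinate dehydrogenase, rose by 0.28 and 0.26 on its 2 probes, and Suclg2, of succinyl-CoA synthetase, fell by 0.15. None of 18 passed on array design 1, with Idh1 at 0.26 ± 0.09 (limma adjusted p = 0.0516). In the glycogen list, Gyg, the primer of glycogen synthesis, rose by 0.34 ± 0.10 (SD, n = 5, limma adjusted p = 7.09e-05), the only 1 of 6 probes on array design 2 to pass. None of 4 passed on array design 1, where Gbe1, the branching enzyme, had −0.13. With the dye trend removed, 2 of the 13 probes of the citric acid cycle list passed, the cytosolic Idh1 and 1 of Sdha, both higher. Gyg passed too, and none of the Tkt probes did. List medians on designs 1 and 2 were 0.35 and 0.13 for pentose phosphate and 0.21 and 0.09 for the citric acid cycle. Those of glycolysis were 0.25 and 0.10. Carriers had 0.08 and −0.11, the regulator list −0.08 and 0.0019, and the glycogen list −0.03 and −0.0069.

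For Bnip3l the lists were the hypoxia response and mitophagy. Of 12 hypoxia response probes on array design 2, 4 rose and none fell, where 19.8% of all probes rose, and 2 of the 4 were Bnip3l itself. Igfbp3, a binding protein of insulin-like growth factors, rose by 0.20 ± 0.18, and Bnip3, the closest relative of Bnip3l, by 0.16 ± 0.12 (SD, n = 5, limma adjusted p = 0.0200 and 0.0384). Vhl, which marks the hypoxia-inducible factor for destruction, had 0.04, and the oxygen sensors Egln1 and Egln2 had 0.05 and −0.0069, none of which passed. The median of the list was 0.05. None of 16 passed on array design 1, with a median of −0.03. The smallest p there was that of Car9, a carbonic anhydrase of hypoxic cells, at −0.23 ± 0.17 (limma adjusted p = 0.0654). Without the readout that had lost values 1 of these 16 passed upward and 1 downward.

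Of 20 probes of mitophagy and core autophagy genes on array design 2, 8 rose and 1 fell, where 19.8% of all probes rose and 8.07% fell. Of the 8 that rose, 2 were Bnip3l itself. Vdac3 and Vdac1, channels of the outer mitochondrial membrane, rose by 0.37 ± 0.09 and 0.30 ± 0.05 (SD, n = 5, limma adjusted p = 2.66e-05 and 0.000176). Bnip1, another gene named for binding a Bcl2 relative, fell by 0.17 (SD 0.06, n = 5, limma adjusted p = 0.0229). Pink1, the kinase of the other main mitophagy route, had −0.06 and did not pass. The median of the list was 0.06. None of 15 passed on array design 1, with a median of 0.0033, and Ulk1, a kinase that starts autophagy, had the smallest p at 0.37 ± 0.31 (limma adjusted p = 0.0609). With the dye trend removed no probe of either list rose on either design, and 2 mitophagy probes fell on array design 2. Of the Bcl2 family, Bik fell by 0.23 (SD 0.10, n = 5, limma adjusted p = 0.00383), 1 of 3 probes on array design 2, and lost the call with the dye trend removed (−0.18, limma adjusted p = 0.0704). The single probe on array design 1, Mcl1, did not pass at 0.23 ± 0.14 (limma adjusted p = 0.0549).

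Most marker probes of red blood cells also rose on array design 2. The 10 erythroid probes belonged to 6 genes, and 4 of the probes were of Hbb-y alone. Of these 10 probes 8, of 4 genes, rose and none fell, with a median of 0.54, where 19.8% of all probes rose. With the dye trend removed 5 rose, the 4 of Hbb-y and 1 of Hbb-b1, with a median of 0.26. In that fit 3.18% of all probes rose, and neither Bnip3l probe 3678 nor 3669 passed (limma adjusted p = 0.117 and 0.424). Without centring none rose and 3 fell, with a median of 0.11, where 0.276% of all probes rose and 87.3% fell. The 4 probes of Hbb-y, an embryonic globin, rose by 0.58 to 0.63, Hba-x, another embryonic globin, by 0.58, and Hbb-b1 by 0.50 and 0.29. Slc4a1 at 0.11 and Alas2 at −0.0018, genes of the red cell membrane and of haem synthesis, did not pass. Hbb-y probe 1624 had 0.42, 0.64, 0.83, 0.46 and 0.82, lowest in replicate 1 and highest in replicate 3. Hbb-b1 probe 3847 had 0.23, 0.63, 0.29, 0.23 and 0.07, highest in replicate 2 and lowest in replicate 5, as Bnip3l probe 3669 was. Hbb-b1 probe 4635 was also highest in replicate 2, while Bnip3l probe 3678, Ldhb and Tpi1 were highest in replicate 1. The part of red blood cells in these values was not tested. In whole embryos more cells of a type and more RNA per cell cannot be told apart. Gata1, the only erythroid probe on array design 1, had −0.06 and did not pass.

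Other cell types were covered thinly. Of 2 heart and muscle probes on array design 2, Mylpf, a myosin light chain of fast muscle, rose by 0.19 ± 0.18 (SD, n = 5, limma adjusted p = 0.0244), but not with the dye trend removed (0.09, limma adjusted p = 0.382). None of 6 and 2 probes of visceral endoderm passed on designs 1 and 2, where the smallest p belonged to Fga, a fibrinogen chain, at −0.17 and to Lrp2, an endocytic receptor, at −0.13. Of placenta and decidua markers none of 7 passed on array design 1, where Prl8a2, a prolactin relative, had −0.26, and 1 of 2 fell on array design 2, a probe of the matrix proteoglycan Dcn (−0.18 ± 0.07), which lost its call with the trend removed (−0.07, limma adjusted p = 0.302).

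**Figure D5:**
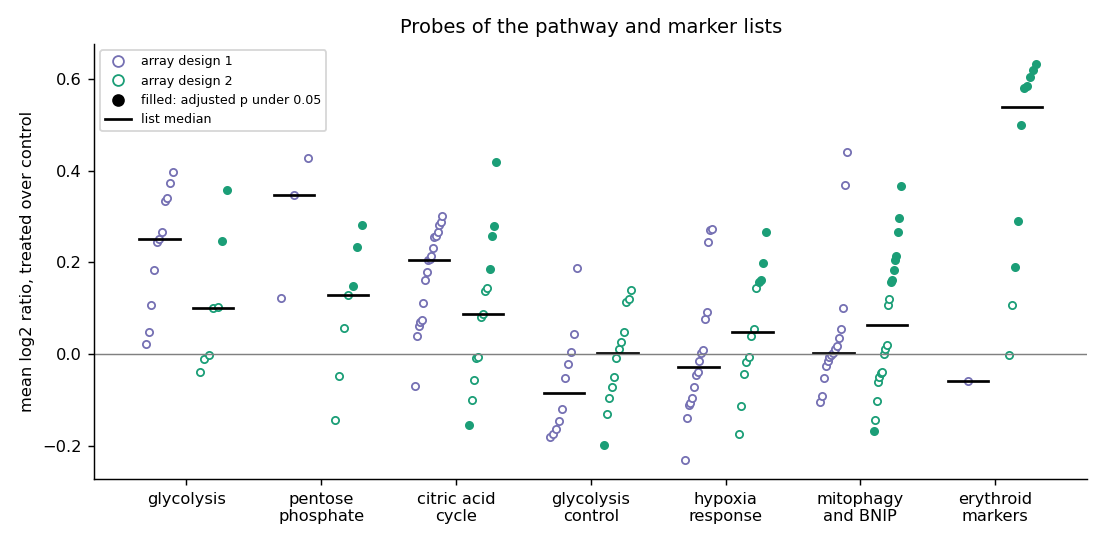
Mean log2 ratio of treated over control embryos (vertical axis) for each probe of 7 gene lists (horizontal axis) on array design 1 and array design 2. Filled points had a limma adjusted p under 0.05, and black bars are list medians. Erythroid probes of array design 2 have a median of 0.54, glycolysis probes 0.25 and 0.10, and hypoxia response probes −0.03 and 0.05.

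Likeness to other genes was measured as the root mean square difference over the 10 values of a probe, 5 replicates in 2 dye orientations. These values share slides and dyes with every other probe of the design. Only probes with exactly 1 symbol, of another gene, could be named as most like a member. For Aldoa probe 6038 and Bnip3l probe 3678 a closer probe outside that set was passed over. Ldhb was most like Myl9, Atox1 and Ckap4, at 0.123, 0.127 and 0.142, where the median of all probes was 0.593. Tpi1 was most like Fstl1, Rbbp4 and Eif4b, at 0.0813, 0.0840 and 0.0853 (median 0.658). Aldoa probe 6038 was most like Ppp2r2d, Dcbld2 and Bsg, at 0.0691, 0.0900 and 0.129 (median 0.702). Of these genes, only Bsg is in a list above.

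The 2 probes of one gene were not each other's nearest. Aldoa probe 6948 was most like Psma7, Glrx5 and Atxn10, and stood at 0.313 from the other Aldoa probe. By closeness among all probes, probe 6038 ranked 63 from probe 6948, and probe 6948 ranked 388 from probe 6038. Bnip3l probe 3678 was most like Ubl5, Serbp1 and Dad1, and probe 3669 most like Chfr, Plcg2 and Eps15. The 2 Bnip3l probes lay 0.648 apart, against medians over all probes of 0.656 from probe 3669 and 0.550 from probe 3678. Bnip3l probe 7523, on array design 1, was most like Ankrd17, Med4 and Esd.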

How the data were processed

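Total RNA of treated and control embryos was compared on 40 2-colour arrays of 2 designs. The deposited values are log2 ratios of the channels, uncentred, with array medians from −1.73 to 1.69. Base 2 is assumed. The sources used here do not name the numerator, scanner, background correction or normalization. Per the labels, titles give replicate, design, slide and readout, and the source names give the channel of the treated embryos. Depth does not apply to arrays, and 5 replicates limit the precision.

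Probes were named through the platform annotation (4749 and 4935 with 1 symbol, 227 and 275 with several, 2704 and 2470 with none). Of the probes with 1 symbol, 4712 and 4884 matched the GRCm38.p6 gene table. Spots of one accession were averaged, leaving 7680 and 7599 probes. Arrays were centred on their median, control-over-treated ratios turned, and readouts and then orientations averaged per replicate. The mean was tested against 0, two-sided, by limma 3.58.1 (R 4.3.3) for each probe measured in 3 or more replicates. The dye trend was a smooth function (mgcv 1.9.3, bases of 40 and 8) of the dye part's leading 3 principal components. The fits were run on simulated data with independent noise for each probe, which cannot show how they behave under a shared dye trend.

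Members, lists and alternatives were chosen with earlier results of these data known. Named are all member and measured glycolysis probes, Bnip3, Bnip1, Bnip2 and Ldha where measured, Ccng1, up to 3 list members of smallest p (1 where none passed) and the 3 nearest named genes. Vhl, Egln1, Egln2, Pink1, Slc4a1, Alas2, Suclg2, Pck2, Tigar, Pfkfb2 and Gpd2 were named after their values were seen. So were the Pdha1, Pdk3, Tkt and Hbb-b1 probes outside the rule. Alternatives covered centring, scaling, readouts, orientations, slide series, priors, weights, missing values, a replicate block, the threshold and leaving out each replicate.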

Additional observations from a re-analysis of the deposited data

How the results depend on the processing

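The values are ratios of 5 replicates, and signal over background cannot be read from ratios, so a dim probe cannot be told from a bright one. Ldhb on array design 2 kept its sign and call under every alternative run except no centring (−0.071) and treated embryos in channel 2 only (0.24, limma adjusted p = 0.621). The causes of the changes below were not tested, except that single orientations and slide series hold fewer slides. With values required on every array, Aldoa probe 6038 has no value to test.

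Without centring, Bnip3l probe 7523 had −0.24, Tpi1 −0.18, Ldhb −0.071, Bnip3l probe 3669 −0.27 and Bnip3l probe 3678 −0.16. Bnip3l probe 7523 was also below 0 with B readouts only (−0.13), with treated embryos in channel 2 only (−0.39), in slide series 3000 (−0.087) and with the dye trend removed (−0.10). Its mean ranged from −0.054 to 0.091 when each replicate was left out. Bnip3l probe 3669 had −0.19 with treated embryos in channel 2 only.

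Aldoa probe 6038 passed with arrays scaled to one spread (0.37), with plain readouts only (0.35), in slide series 2000 (0.38), with array quality weights (0.36), with single arrays and a replicate block (0.34) and without the readout that had lost values (0.37). Aldoa probe 6948 passed with plain readouts only (0.35), in slide series 2000 (0.39), with quality weights (0.30) and without that readout (0.36). Neither passed whichever replicate was left out (0.33 to 0.45 and 0.21 to 0.33).

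Tpi1 lost its call with treated embryos in channel 1 (0.32) or channel 2 (0.17) only, in slide series 3000 (0.17) and with the dye trend removed (0.050). Bnip3l probe 3678 lost it with treated embryos in channel 1 (0.24) or channel 2 (0.29) only and with the trend removed (0.14). Bnip3l probe 3669 lost it with scaled arrays (0.14), plain readouts (0.18), B readouts (0.14), a term for slide series (0.14), slide series 3000 (0.057), the trend removed (0.053), the replicate block (0.16, limma adjusted p = 0.0517) and a threshold of 0.01 (0.16). Its adjusted p ranged from 0.00726 to 0.161 when each replicate was left out, with means of 0.13 to 0.22. The ranges for Tpi1, Ldhb and Bnip3l probe 3678 were 0.22 to 0.27, 0.32 to 0.39 and 0.23 to 0.31.

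The 50 probes called on array design 1 became 4615 without centring, 345 with scaled arrays, 501 with plain and 3 with B readouts, 2324 and 1108 with treated embryos in channel 1 or 2 only, 12 with a series term, 3 in slide series 3000, 688 with quality weights, 608 with the replicate block, 1224 without the readout that had lost values, 120 with the dye trend also removed (chosen after seeing the data), 5 at a threshold of 0.01 and 7 to 82 without each replicate. With values required on every array limma called 0 of 6894, of which 2018 had an unadjusted p under 0.05 and the lowest adjusted p was 0.0645. The 2114 on array design 2 became 6655 without centring, 1331 with scaled arrays, 1076 with plain readouts, 1190 and 117 with treated embryos in channel 1 or 2 only, 811 in slide series 3000, 381 with the trend removed, 1043 at a threshold of 0.01 and 1013 to 2637 without each replicate. Lower calls on array design 2 were 613 of 2114 as reported, 180 of 1331 with scaled arrays and 104 of 1076 with plain readouts.

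Glycolysis probes that passed went from 0 to 5 on array design 1 without the readout that had lost values. On array design 2 they went from 2 to 1 with the trend removed and to 5, all lower, without centring, where the median was −0.33. Treated and control embryos are paired on each array, so the test of the ratio against 0 is already a paired one. The replicate block had consensus correlations of −0.09 and −0.16.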
